A study of Mus musculus with 6 samples.

Results

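The sodium pump, or Na,K-ATPase, was examined in the kidney through the 8 genes that encode its beta chains and FXYD regulators: Atp1b1, Atp1b2, Atp1b3, Fxyd1, Fxyd2, Fxyd3, Fxyd4 and Fxyd5. They were chosen by gene symbol and not by a measured value, from the 24422 genes in the count tables. Earlier results of these data were known when they were chosen. All 8 passed the filter on low counts. RNA was sequenced from whole kidneys of C57BL/6 wild type pups at postnatal day 15. In the iron-deficient (FeD) group, dams ate a synthetic diet of 2 to 6 ppm iron. In the control group, dams ate a different product, a PicoLab diet with 220 ppm iron. Any other differences between these diets cannot be told apart from iron. Each diet was given from before mating, through pregnancy and after birth until the kidneys were taken. Each group had 3 kidneys, each a library of its own. Neither the litters nor the sex of these pups are given, so differences between litters cannot be told apart from the diet, and P values measure the spread between these kidneys only.

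The sodium pump sits in the basolateral membrane of tubule cells and exports sodium in exchange for potassium at the cost of ATP. It is the engine for sodium reabsorption along the nephron. A catalytic alpha chain carries the ions, and a beta chain, a glycoprotein with a single membrane span, is needed to fold the alpha chain and bring it to the surface. FXYD proteins are small single-span membrane proteins that bind the assembled pump and tune its affinity for sodium and potassium. Fxyd2, the gamma subunit, is the main FXYD protein of the proximal tubule, thick ascending limb and distal convoluted tubule, whereas Fxyd4 belongs to the collecting duct.

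The FXYD family is defined by a short signature, proline, phenylalanine, any residue, tyrosine and aspartate, just before the membrane span. The coding bases of that signature are shown for the 5 FXYD genes because they are what these genes share, and because they show how far the bases differ between members. The 15 bases in capitals encode the signature, and 6 bases stand on each side.
Fxyd1: ccggatCCATTCACCTACGATtaccac
Fxyd2: gagaatCCCTTCGAGTACGACtatgaa
Fxyd3: aatgatCCTTTCTACTATGATtggtac
Fxyd4: gacagtCCCTTCTACTATGACtgggag
Fxyd5: aacaacCCCTTCTACTACGATgatact

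Each stretch was read in frame from the mm9 genome on the strand of its gene and crossed 1 exon junction, so it lies in coding exons at a pair of places. Those of Fxyd1 are chr7:31838486-31838493 and chr7:31838912-31838930 (minus strand). Those of Fxyd2 are chr9:45216209-45216227 and chr9:45216383-45216390 (plus strand). For Fxyd3 they are chr7:31856378-31856385 and chr7:31857094-31857112 (minus strand), and for Fxyd4 chr6:117884511-117884518 and chr6:117885027-117885045 (minus strand). The Fxyd5 stretch lies at chr7:31820295-31820302 and chr7:31820405-31820423 (minus strand) and was in 8 of the 10 annotated coding transcripts of that gene. No 100-base window of a transcript of these 8 genes recurred in another protein-coding gene, and none of their exons overlapped those of another gene, apart from Fxyd3.

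Totals of 16189041 to 20374327 counts were found in control kidneys and of 13732173 to 20853293 in FeD kidneys, and 3 counts, the smallest signal taken, equalled 0.144 to 0.218 CPM (counts scaled to the library total). The 8 genes held 0.535% to 0.563% of all counts in control kidneys and 0.377% to 0.454% in FeD kidneys. FeD kidney 2 stood apart: the summed normalized count of the adrenal cortex markers Star, Cyp11a1, Cyp11b1 and Cyp21a1 was 10464 there and 135 to 293 in the other kidneys. The fold change of each of the 8 genes is therefore given with and without it. Other results are for all kidneys unless stated. Markers of the proximal tubule, thick ascending limb, distal convoluted tubule, collecting duct and podocyte were found in every kidney. In whole kidneys, fewer cells of a type and less RNA per cell cannot be told apart.

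Among the 8 genes, Fxyd2, Fxyd3 and Atp1b3 fell in FeD kidneys, and none rose at an adjusted P under 0.05 (edgeR quasi-likelihood test; P values adjusted by Benjamini-Hochberg over the 15145 tested genes). At an unadjusted P under 0.05 there were 4, the same 3 and Fxyd5, which was higher. The share of all tested genes at that unadjusted limit was not counted. It cannot be below the 45.7% that passed the adjusted one. The DESeq2 Wald test also called none higher and called 2 lower, with 3315 of all 15145 tested genes lower and 3374 higher. As background to the edgeR calls, 23.3% of all tested genes were lower and 22.4% were higher at an adjusted P under 0.05, 45.7% in all. The groups did not overlap for 4 of the 8 genes, and for 58.1% of all tested genes. Fxyd3 alone fell by at least 2-fold, and it had passed the filter on low counts through the control kidneys, where it is higher (1 FeD kidney was over the limit). With at least 10 counts in every kidney it was not tested, 2 genes were lower and 0 reached 2-fold. Of all tested genes, 10% changed at least 2-fold with an adjusted P under 0.05 (5.69% lower and 4.34% higher). The median log2 fold change was -0.24 over the 8 genes and -0.0018 over all tested genes.

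**Figure D1:**
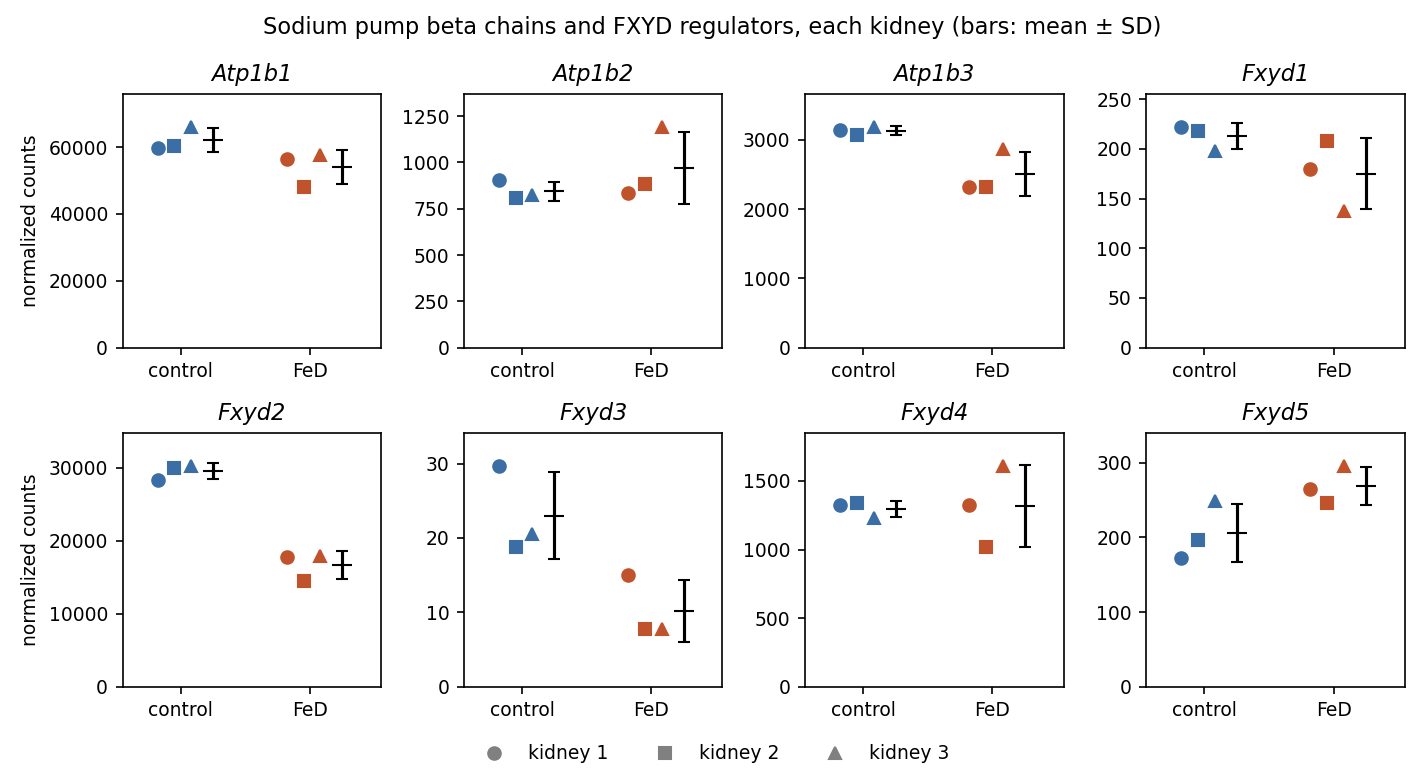
Normalized read counts (TMM scaled, linear axes from 0) of the 8 genes in each control and FeD kidney; points are kidneys and bars are group means with SD (n = 3). Fxyd2 values of 28299 to 30294 (control) and 14467 to 17929 (FeD) stand apart, whereas Fxyd4 overlapped between groups.

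Atp1b1 encodes beta 1, the main beta chain of the tubule. Its normalized read count was 59838, 60359 and 66085 in control kidneys and 56440, 48141 and 57624 in FeD kidneys. All 3 FeD kidneys lay below all 3 control kidneys, and FeD kidney 2 was the lowest. The means were 62094 ± 3466 and 54068 ± 5168 (SD, n = 3), a log2 fold change of -0.20 (SE 0.10, 95% interval -0.43 to 0.03, edgeR adjusted P = 0.137), so a difference was not shown. Without FeD kidney 2 the log2 fold change was -0.10 (adjusted P = 0.361). Atp1b1 lies on the minus strand of chromosome 1 (mm9, 166367398 to 166388486). It was the 7th most abundant of all genes by normalized count and the 10th by reads per kilobase of exon among the 13729 genes ranked by it. Globin and mitochondrial genes hold no counts in these data, so both ranks leave them out.

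Atp1b3 encodes beta 3, a more widely expressed beta chain. Control kidneys held 3139, 3065 and 3191 normalized counts and FeD kidneys 2322, 2325 and 2875. Every FeD kidney was below every control kidney, with FeD kidney 3 nearest to the controls. Atp1b3 fell from 3132 ± 63.2 to 2507 ± 319 (SD, n = 3), by 0.32 on the log2 scale (SE 0.09, 95% interval -0.52 to -0.12, edgeR adjusted P = 0.019), which is 1.25-fold. This call did not hold without FeD kidney 2, with a log2 fold change of -0.25 and an adjusted P of 0.073, and it was also lost when any of the 3 control kidneys or FeD kidney 1 was left out. The Atp1b3 gene spans 96233099 to 96264766 of chromosome 9 (minus strand).

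Atp1b2 encodes beta 2, known as an adhesion molecule on glia. It had 903, 807.6 and 824.7 normalized counts in control kidneys and 834.9, 881.6 and 1193 in FeD kidneys. The groups overlapped, and FeD kidney 3 was the highest. The log2 fold change was 0.20 (SE 0.13, 95% interval -0.11 to 0.51, edgeR adjusted P = 0.256), and 0.29 without FeD kidney 2 (adjusted P = 0.149). None of the 3 tested markers of Schwann cells and glia, S100b among them, passed the test (edgeR), and the summed marker count was 188 to 214 in control and 136 to 243 in FeD kidneys. Its gene occupies 69413238 to 69419444 of chromosome 11 (minus strand).

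Scaled for exon length, the order of the beta chains was the same in both groups and their ranges did not touch. Atp1b1 had 1436 ± 80.1 RPKM (reads per kilobase of exon, scaled to the library total) in control and 1250 ± 119 in FeD kidneys (SD, n = 3). Atp1b3 had 93.6 ± 1.89 and 74.9 ± 9.52, and Atp1b2 averaged 11.6 and 13.3. Atp1b1 thus made up 92.9%, 93.1% and 93.5% of length-scaled beta chain reads in control kidneys and 94.2%, 93.2% and 92.9% in FeD kidneys. The means of 93.2% ± 0.302 and 93.4% ± 0.679 differed by 0.24 percentage points, less than the spread between kidneys (exact permutation test, two-sided, P = 0.7).

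Fxyd2, the gamma subunit, had the clearest difference of the 8 genes. This protein lowers the sodium affinity of the pump, and mutations of its human counterpart cause renal loss of magnesium. The normalized count was 28299, 30012 and 30294 in control kidneys and 17718, 14467 and 17929 in FeD kidneys. Every FeD kidney was far below the lowest control kidney. The means were 29535 ± 1080 and 16704 ± 1941 (SD, n = 3), and Fxyd2 fell by 0.82 on the log2 scale (SE 0.10, 95% interval -1.05 to -0.59, edgeR adjusted P = 0.00048), which is 1.77-fold. The fall was 0.71 on the log2 scale without FeD kidney 2 (adjusted P = 0.00056). Per kilobase of exon the level went from 1638 ± 59.9 to 926 ± 108 RPKM. The Fxyd2 gene spans 45207957 to 45218361 of chromosome 9 (plus strand).

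Fxyd4, also called corticosteroid hormone-induced factor, is the FXYD protein of the collecting duct and raises the sodium affinity of the pump. It had 1327, 1336 and 1231 normalized counts in control kidneys and 1323, 1015 and 1612 in FeD kidneys. FeD kidneys 2 and 3 lay below and above all control kidneys. The means of 1298 ± 58.1 and 1317 ± 298 (SD, n = 3) gave a log2 fold change of 0.02 (SE 0.15, 95% interval -0.31 to 0.36, edgeR adjusted P = 0.904), and of 0.20 without FeD kidney 2 (adjusted P = 0.134). The sign of this small value turned when control kidney 3 or FeD kidney 3 was left out. Its gene occupies 117883747 to 117887353 of chromosome 6 (minus strand).

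Fxyd5, or dysadherin, is known from epithelial and immune cells and loosens cell contacts by way of the pump's beta chain. Its normalized count was 173, 197 and 249 in control kidneys and 265, 245 and 296 in FeD kidneys. The groups overlapped by a single pair, control kidney 3 and FeD kidney 2. With means of 206 ± 39.1 and 269 ± 25.6 (SD, n = 3), the log2 fold change was 0.38 (SE 0.15, 95% interval 0.03 to 0.73, edgeR adjusted P = 0.071) and did not pass the threshold. It was 0.46 without FeD kidney 2 (adjusted P = 0.055) and 0.54 without control kidney 3, where it passed (adjusted P = 0.029). Of the 4 tested leukocyte markers, Ptprc (log2 fold change 0.56) and Cd68 (1.12) rose, Csf1r fell by 0.45 and Lyz2 did not pass. Their summed count, Cd3e included, was 2069 to 2234 in control and 1896 to 2151 in FeD kidneys, and the part of leukocytes in the Fxyd5 value was not tested. The gene spans 31817741 to 31827500 of chromosome 7 (minus strand).

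Fxyd1, or phospholemman, is the FXYD protein of heart and muscle and a target of protein kinases. Control kidneys had 222, 218 and 198 normalized counts and FeD kidneys 180, 208 and 137. FeD kidney 2 lay within the control range and the other FeD kidneys below it. The log2 fold change of -0.29 did not pass (SE 0.16, 95% interval -0.66 to 0.08, edgeR adjusted P = 0.172), nor did that of -0.41 without FeD kidney 2 (adjusted P = 0.067). Among the smooth muscle and pericyte markers, Tagln (0.47) and Pdgfrb (0.59) rose, Myh11 fell by 1.31 on the log2 scale and Acta2 did not pass, with sums of 8257 to 9040 in control and 9355 to 10535 in FeD kidneys. Skeletal muscle markers summed to 14.4 to 42.0 in control kidneys and 7.77 to 184 in FeD kidneys, with the highest value in FeD kidney 1, and neither of the 2 tested, Myl1 and Tnnt3, passed. The gene spans 31836700 to 31840675 of chromosome 7 (minus strand).

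Fxyd3, first known from mammary tumors and found in surface epithelia, had so few reads that its call rests on small numbers. The raw counts were 31, 17 and 23 in control kidneys and 15, 6 and 9 in FeD kidneys, or 29.7, 18.8 and 20.5 against 15.0, 7.79 and 7.77 after normalization. The groups did not overlap. Fxyd3 fell from 23.0 ± 5.88 to 10.2 ± 4.17 normalized counts (SD, n = 3), by 1.16 on the log2 scale (SE 0.37, 95% interval -2.02 to -0.31, edgeR adjusted P = 0.034). The gene passed the filter (over 0.553 CPM) in all 3 control kidneys but in only 1 FeD kidney. Without FeD kidney 2 its log2 fold change was -1.01 with an adjusted P of 0.086. The call was also lost without any one of the control kidneys, without FeD kidney 3 and by the DESeq2 Wald test.

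The Fxyd3 gene (chromosome 7, 31853191 to 31861723, minus strand) shares 43.2% of its exon bases with exons of Lgi4 (31844361 to 31855954), a gene for a secreted protein of glia on the plus strand. Of the 100-base windows of Fxyd3 transcripts, 59.3% recurred in Lgi4 on either strand. The strand setting of the counting is not given, so reads of these genes cannot be fully told apart. Lgi4 itself had 18.2, 38.7 and 19.6 normalized counts in control and 31.0, 77.9 and 25.9 in FeD kidneys, with a log2 fold change of 0.80 (edgeR adjusted P = 0.213), of the opposite sign to Fxyd3. Of 5 urothelium markers, Upk2, Upk3a and Krt5 fell, Upk1a and Upk1b did not pass, and the sum was 999 to 1374 in control and 712 to 953 in FeD kidneys. Their part in the Fxyd3 value was not tested.

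**Figure D2:**
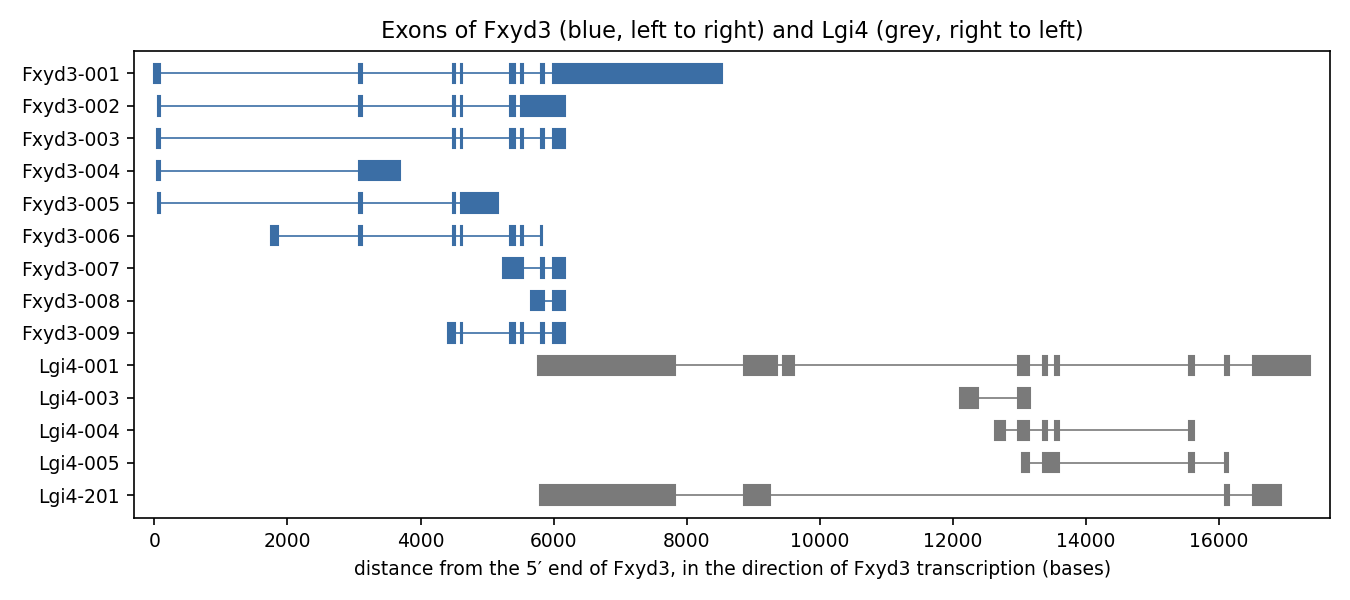
Exons of the annotated transcripts of Fxyd3 and of Lgi4 on opposite strands, drawn to scale as boxes against distance in bases from the 5′ end of Fxyd3, in its direction of transcription. Their 3′ ends overlap, where 43.2% of the exon bases of Fxyd3 are shared.

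**Figure D3:**
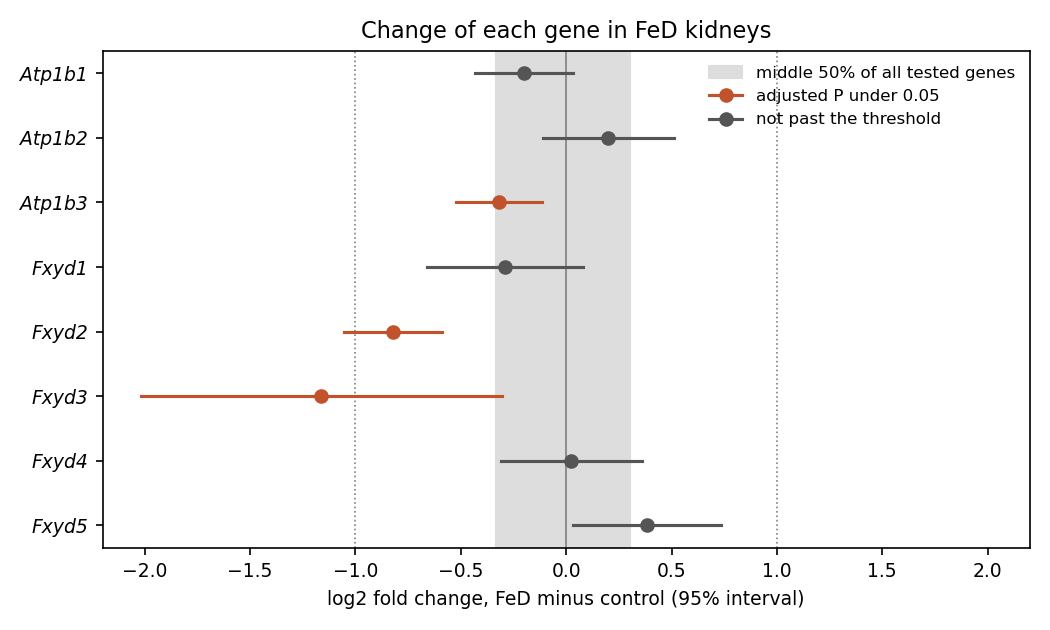
Log2 fold change of FeD against control for the 8 genes with 95% intervals from the edgeR quasi-likelihood fit of all 6 kidneys; orange marks an adjusted P under 0.05, the grey band the middle 50% of all tested genes and dotted lines a 2-fold change. The Fxyd2 interval of -1.05 to -0.59 lies farthest from 0 relative to its width, and the point for Fxyd4 lies at 0.02.

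Of the 8 genes, 4 lie near another gene of the FXYD family. Fxyd5, Fxyd7, Fxyd1 and Fxyd3 lie in this order on the minus strand of chromosome 7. The gaps are 35 bases between Fxyd5 and Fxyd7 and 218 bases between Fxyd7 and Fxyd1. Fxyd1 and Fxyd3 are 12515 bases apart, with part of Lgi4 between them. Fxyd6 lies 3715 bases before Fxyd2 on the same strand of chromosome 9. Fxyd6, a FXYD protein known from brain and inner ear, had 392, 376 and 391 normalized counts in control and 586, 934 and 528 in FeD kidneys. It rose by a log2 fold change of 0.81 (edgeR adjusted P = 0.010), and by 0.55 without FeD kidney 2 (adjusted P = 0.0031), while Fxyd2 beside it fell.

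The composition of Fxyd1 to Fxyd5 was compared next, since it does not depend on how libraries are scaled. Fxyd6, with 12.1 RPKM in control and 21.3 in FeD kidneys, and Fxyd7, with 1.07 and 1.88, are outside this total. Fxyd2 made up 95.02%, 95.28% and 95.6% of length-scaled Fxyd1 to Fxyd5 reads in control kidneys and 92.5%, 92.3% and 91.7% in FeD kidneys. All FeD values were lower. The means of 95.3% ± 0.305 and 92.1% ± 0.418 (SD, n = 3) differed by -3.16 percentage points (exact permutation test, two-sided, P = 0.1, the smallest that 3 against 3 kidneys allow). The remainder was mostly Fxyd4, at 3.53% ± 0.242 in control and 6.07% ± 0.776 in FeD kidneys. Fxyd1 averaged 0.981% and 1.41%, and Fxyd5 0.160% and 0.359%. A fall of Fxyd2 raises the shares of the others by itself. Mean normalized counts in control and FeD kidneys were 1298 and 1317 for Fxyd4 and 213 and 175 for Fxyd1. The Fxyd5 share rests on a merged exon length of 4185 bases, against 811 for its median coding transcript.

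The fall of Fxyd2 was then expressed against the beta 1 chain of the same pump. The share above and this ratio use the same Fxyd2 counts as the fold change, so they are not separate evidence. The log2 ratio of length-scaled Fxyd2 to Atp1b1 reads was 0.18, 0.25 and 0.14 in control kidneys and -0.41, -0.47 and -0.42 in FeD kidneys. The gap between groups was many times the spread within either. The means of 0.19 ± 0.059 and -0.43 ± 0.033 (SD, n = 3) differed by -0.63, again with the smallest P possible (exact permutation test, two-sided, P = 0.1). Leaving out any kidney kept this difference between -0.65 and -0.59.

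**Figure D4:**
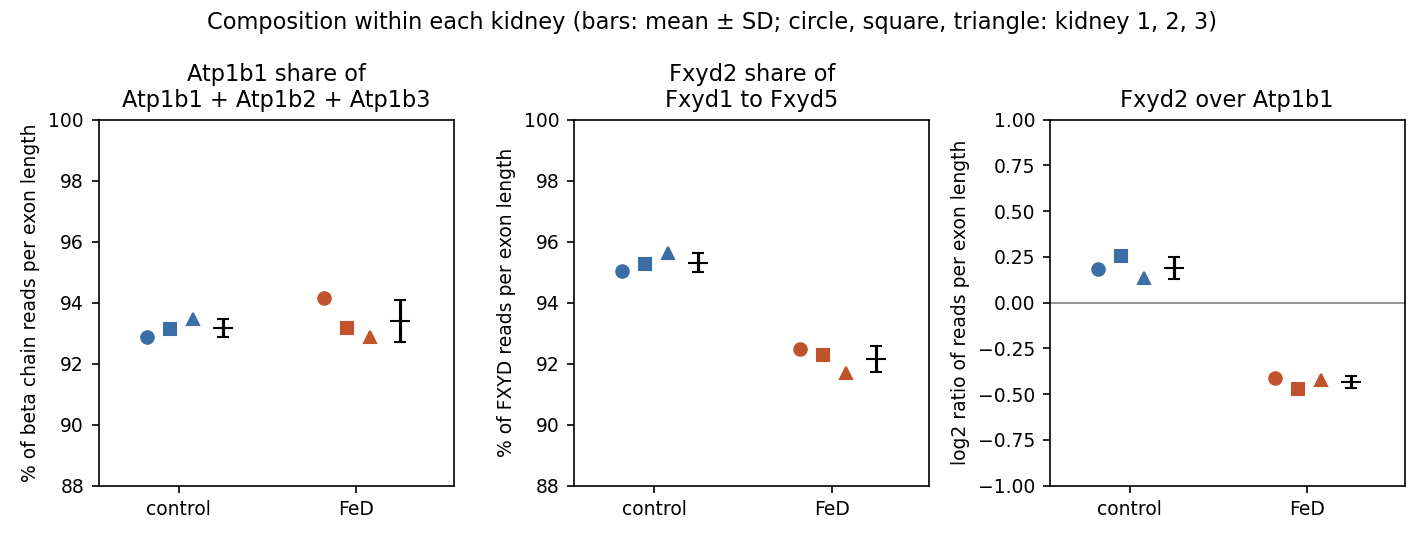
Share of Atp1b1 among length-scaled beta chain reads, share of Fxyd2 among length-scaled Fxyd1 to Fxyd5 reads (both in percent, on axes that do not start at 0) and log2 ratio of Fxyd2 to Atp1b1, with 1 point per kidney and the group mean with SD beside them. The Atp1b1 share overlaps between groups, whereas the Fxyd2 share (91.7% to 92.5% against 95.02% to 95.63%) and the ratio do not.

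Fxyd2 and Fxyd4 were set beside markers of the segments where their proteins are known to act. All 6 proximal tubule markers fell (Lrp2, Cubn, Slc34a1, Slc5a2, Aqp1 and Slc22a6), and their summed normalized count was 126107 to 134736 in control and 51633 to 54627 in FeD kidneys. Of 3 distal convoluted tubule markers, Slc12a3 and Pvalb fell and Trpm6 had a log2 fold change of -0.59 (edgeR adjusted P = 0.066) and passed without FeD kidney 2 (-0.77, adjusted P = 0.026), with sums of 21774 to 27322 against 6191 to 9724. Of 4 thick ascending limb markers only Ptger3 fell, by 0.55 on the log2 scale, and Umod, Slc12a1 and Cldn16 did not pass.

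As a percentage of the control mean, Fxyd2 stood at 60.0%, 49.0% and 60.7% in FeD kidneys 1, 2 and 3. The proximal tubule sum stood at 41.7%, 40.0% and 39.5%, that of the distal convoluted tubule at 40.5%, 37.0% and 25.8%, and that of the thick ascending limb at 86.0%, 73.2% and 122%. These sums weigh abundant markers most, and single markers differed in order: Slc34a1 (log2 fold change -2.22), Slc5a2 (-4.89) and Slc22a6 (-1.08) had larger falls than the -0.82 of Fxyd2, and Lrp2 (-0.48), Cubn (-0.45) and Aqp1 (-0.45) had smaller ones. These differences from Fxyd2 were not tested. The part of a changed share of segments in its value was not tested.

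The principal cell markers moved the other way. Aqp2 (1.13), Aqp3 (1.096), Scnn1b (0.32) and Scnn1g (0.75) rose on the log2 scale, Avpr2 fell by 0.67, and the sum was 18843 to 27753 in control and 31324 to 51799 in FeD kidneys. Fxyd4 stood at 102%, 78.2% and 124% of its control mean in FeD kidneys 1, 2 and 3, and the principal cell sum at 210%, 143% and 236%. Of the FeD kidneys, number 2 was the lowest and number 3 the highest for Fxyd4 and for the sum, which Aqp2 and Aqp3 dominate, whereas number 3 was the lowest for Scnn1b and Scnn1g.

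**Figure D5:**
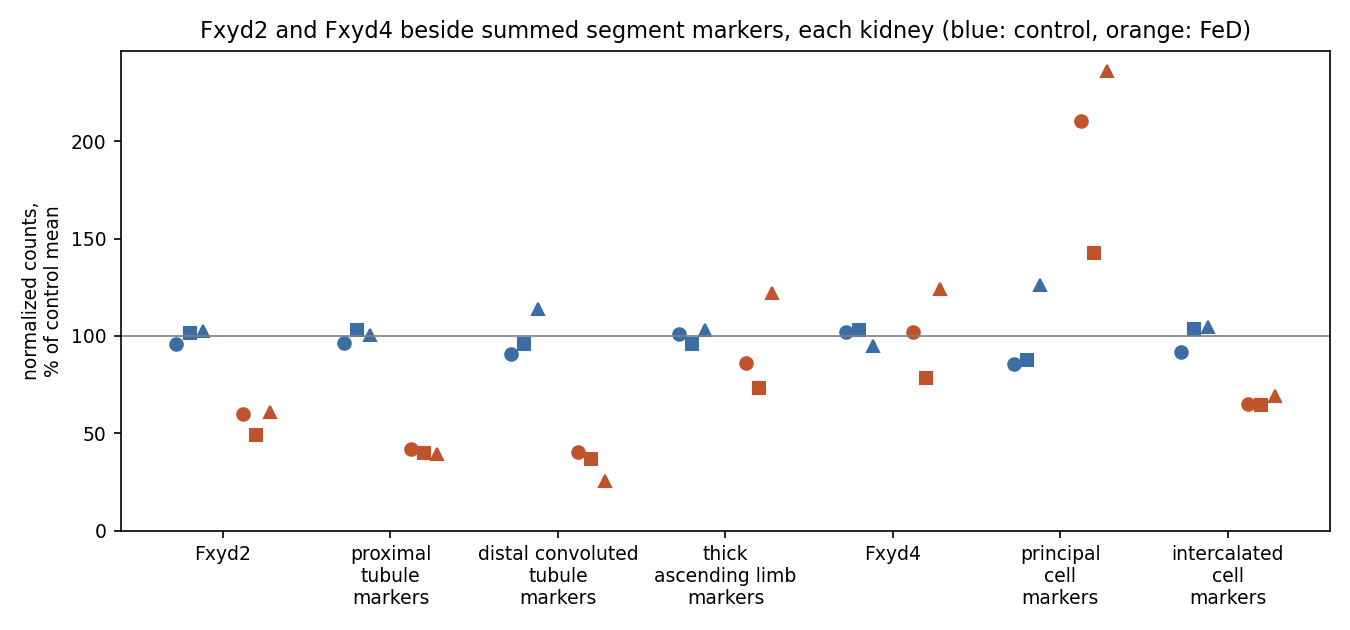
Values in control (blue) and FeD (orange) kidneys as a percentage of the control mean for Fxyd2, Fxyd4 and the summed markers of proximal tubule, distal convoluted tubule, thick ascending limb, principal and intercalated cells; circles, squares and triangles stand for kidneys 1, 2 and 3. In FeD kidneys, Fxyd2 (49.0% to 60.7%) lies above the proximal tubule sum (39.5% to 41.7%), though not above each of its markers. Fxyd4 (78.2% to 124%) lies below the principal cell sum (143% to 236%), though not below each of its markers, since Avpr2 fell.

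Other genes of the pump family and its surroundings were counted by list, again with calls in both directions. As background to each list, 22.4% of all tested genes were higher and 23.3% lower. Their median log2 fold change was -0.0018. Of 14 other pump and FXYD genes in the tables, 8 were tested, 2 rose, 1 fell and 5 did not pass, with a median log2 fold change of 0.0041. The catalytic alpha chain genes are counted in this list and are not described singly. Atp12a, a proton and potassium pump of the collecting duct, rose, with a normalized count of 122 ± 20.7 in control and 334 ± 50.1 in FeD kidneys (SD, n = 3; log2 fold change 1.45, edgeR adjusted P = 0.00033), and Fxyd6 rose as given above. Atp4a, the gastric proton pump chain, fell from 456 ± 49.9 to 233 ± 32.8, by 0.97 on the log2 scale (adjusted P = 0.00071). Fxyd7, Nkain1 and Nkain4 did not pass. Without FeD kidney 2 the counts were 2 higher and 2 lower.

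Of 9 genes through which sodium enters tubule cells, 4 fell, 2 rose and 3 did not pass, with a median log2 fold change of -0.53. Slc34a1, the sodium phosphate cotransporter of the proximal tubule, fell (log2 fold change -2.22), as did Slc5a2, the glucose cotransporter SGLT2 (-4.89), Slc5a1 (-0.57) and Slc12a3, the thiazide-sensitive cotransporter (-1.56). Scnn1b and Scnn1g, chains of the epithelial sodium channel, rose as given above, and Scnn1a, Slc9a3 and Slc12a1 did not pass. This list shares 6 genes with the segment markers. Its counts were the same without FeD kidney 2.

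Some potassium and chloride channels work beside the pump in the basolateral membrane. Of 8 listed genes for potassium and chloride channels or their subunits, 2 rose, 2 fell and 4 did not pass. The membrane in which each acts was not examined, and not all are basolateral. Kcnj15 (0.47) rose on the log2 scale, and Kcne1 (-1.56) and Bsnd, the barttin chain of chloride channels (-1.01), fell. Kcnj10, Kcnj16 and Kcnq1 did not pass, and the median was 0.014. Without FeD kidney 2, Kcnj16 rose as well (log2 fold change 0.35, edgeR adjusted P = 0.010).

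Of 9 genes listed as regulators of the pump, 3 rose, 3 fell and 3 did not pass. Sgk1 (0.89), a kinase induced by corticosteroids, Tsc22d3 (1.32), a glucocorticoid target, and Nedd4l (0.55), a ubiquitin ligase for the sodium channel, rose on the log2 scale. Pln, phospholamban, known as a regulator of the calcium pump and not of the sodium pump (-1.96), Nr3c1, the glucocorticoid receptor (-0.32), and Hsd11b2, which inactivates corticosteroids in the collecting duct (-0.30), fell. The falls of Nr3c1 and Hsd11b2 did not hold without FeD kidney 2 (edgeR adjusted P = 0.125 and 0.056). Nr3c2 and Ppp2ca did not pass, and the median over the list was -0.16.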

How the data were processed

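Raw counts of reads per gene and kidney were deposited by the authors, without normalization or pooling. Per the labels and the study's methods, total RNA of whole kidneys was extracted with TRIzol, polyadenylated RNA was made into TruSeq libraries and sequenced as single-end reads of 100 bases. Per the submitters' processing notes, CASAVA 1.8.2, Trimmomatic, TopHat2 2.0.11 with mm9, and HTSeq were used, and uniquely mapped reads were kept. The annotation, counting mode and strand setting of HTSeq are not given in the sources used here. Reads shared by near-identical copies are lost in such counts. The 8 genes and all lists were chosen with earlier results of these data known. Named genes are those 8, the genes of the lists and cell type markers, and, for 2 of the 8 (the most abundant per length and, among those with at least 50 normalized counts, the one with the largest change), the 3 genes with the most similar pattern.

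Counts of 24422 genes in 3 FeD and 3 control kidneys entered edgeR 4.0.16 under R 4.3.3 (filterByExpr, TMM, quasi-likelihood test, Benjamini-Hochberg adjustment over 15145 genes). Normalized counts are counts scaled by TMM library sizes to the mean library, and reads per kilobase were divided by the length of merged exons. Standard errors are the absolute log2 fold change over the root of its F statistic, and 95% intervals use the total degrees of freedom of that fit. Shares and ratios were compared by exact permutation over the 6 kidneys. A floor of 3 counts covers counting error only, since reads carry no molecular identifiers. No pair of libraries agreed within sampling noise. The procedure was tested on simulated data. Positions, exons and the signature bases came from the GENCODE annotation and genome of NCBIM37 (mm9). Same-numbered kidneys did not deviate together (r = -0.29, -0.0081 and -0.14), so the numbers were not taken as pairs. As alternatives, libraries were scaled by DESeq2's size factors or by their totals, the filter was dropped or set to 10 counts in every kidney, and DESeq2 1.42.0, a replicate block, each kidney left out in turn and, chosen after seeing the data, the median transcript length for shares and the lists without FeD kidney 2 were tried. DESeq2 is the tool the study's methods name. Some genes of the lists are counted there and not reported here.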

Additional observations from a re-analysis of the deposited data

How the results depend on the processing

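The fall of Fxyd2 passed in all 12 alternatives (log2 fold change -0.86 to -0.71), that of Atp1b3 in 7 of 12 (-0.42 to -0.25) and that of Fxyd3 in 4 of the 11 that could test it (adjusted P 0.023 to 0.120). Atp1b1, Atp1b2, Fxyd1 and Fxyd4 passed in 0 of 12. Leaving out a kidney gave 1 to 2 genes lower, 0 to 1 higher and 0 to 1 changed at least 2-fold: 1 was lower without any one of the 3 control kidneys or FeD kidney 2, and the 2-fold count kept its 1 gene only without FeD kidney 1. Over all tested genes, 3527 were lower and 3397 higher with all kidneys. Without control kidney 1, 2 or 3, 2757, 2618 and 2623 were lower and 2554, 2401 and 2453 higher. Without FeD kidney 1, 2 or 3, 3053, 3190 and 3817 were lower and 3331, 3353 and 3937 higher. Among the 8 genes, the 2-fold count was 0 with no filter and by the DESeq2 Wald test. It was also 0 with at least 10 counts in every kidney, where Fxyd3 was not tested. With the replicate block 1 gene was higher, Fxyd5 (0.39, adjusted P = 0.049); the block changed no other call among the 8 genes, and no kidney correlated best with its own number. Fxyd4 turned to -0.015 without control kidney 3 and to -0.13 without FeD kidney 3, and was at most 0.20, without FeD kidney 2. The difference in the Atp1b1 share turned to -0.017 percentage points with reads not divided by length, and ran from -0.14 (without FeD kidney 1) to 0.51 over the kidneys left out. The difference in the Fxyd2 share was -3.99 percentage points with reads not divided by length and -2.59 with the median transcript length. DESeq2's size factors and library size alone changed no call among the 8 genes. Leaving out globin and mitochondrial genes was not run, since these genes hold no counts in the tables. The cause of these changes was not tested. Fxyd3 is limited by depth, with 6 to 31 reads a kidney.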

Other observations

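Among the genes whose pattern over the 6 kidneys was most like that of Fxyd2, of the 12932 genes searched (50 normalized counts or more on average), were Acox2 (Pearson r = 0.9998), an enzyme of bile acid synthesis in peroxisomes, and Agpat1 (0.999). Acox2 averaged 1570 normalized counts in control and 742 in FeD kidneys. For Atp1b1 they were Irx1 (0.996), a homeobox gene of the nephron, Wnt9b (0.995), a signal from the ureteric bud to the nephron, and Rnf19b (0.995). These values describe 6 libraries that share their depth and group differences, and carry no test.

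Among markers of cells other than those above, Kdr, Emcn and Cdh5 of the endothelium fell (Cdh5 not without FeD kidney 2, with an edgeR adjusted P of 0.058) and Pecam1 did not pass, Nphs1 and Podxl of the podocyte did not pass, and of the intercalated cell Slc4a1 and Slc26a4 fell, Atp6v0d2 rose and Atp6v1g3 did not pass. The red cell gene Alas2 did not pass, and Hbb-b1 and Hba-a1 are listed at 0 in every kidney. The adrenal markers Star and Cyp21a1 passed with all kidneys and not without FeD kidney 2.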
